A study of Mus musculus with 21 samples.

Results

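The perinuclear theca is the dense protein shell that encloses the nucleus of the sperm head, and 9 genes that encode parts of it or actin-related proteins found beside it were followed through spermatid formation in the mouse. They are *Ccin*, *Cylc1*, *Cylc2*, *Capza3*, *Actl7a*, *Actl7b*, *Actrt1*, *Actrt2* and *Actrt3*, a list set by name rather than by a threshold on values, drawn up with earlier results of these data known, and they make up 9 of the 24456 genes counted. RNA was sequenced from fractionated spermatogenic cells of mouse testis in 21 libraries. Pachytene spermatocytes (meiotic cells), round spermatids (haploid cells before elongation) and condensing spermatids (cells compacting their chromatin) were each represented by 3 wild-type (WT) and 3 *H2al2* KO libraries, and spermatozoa by 2 WT libraries and 1 *H2al2* KO library. *H2al2* encodes H2A.L.2, a histone variant of late spermatids that takes part in the replacement of histones by protamines; strain, age and the KO allele are not given in the sources used here, and all groups, spermatozoa included, share the testis as their labelled source. The labels number the replicates without saying whether they came from separate animals or pools. The study's text describes its isolated wild-type round spermatids as biological replicates. For the KO round spermatids and for the other stages the sources used here do not say. P-values that involve those groups measure the spread between these libraries, which may be technical.

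During spermiogenesis the acrosome spreads over the nucleus on a plate of cytoskeletal proteins, the acroplaxome, and the theca forms between the acrosome and the nuclear envelope and continues behind the acrosome as the calyx. Calicin, the product of *Ccin*, is a Kelch-repeat protein of the calyx, and the cylicins, encoded by *Cylc1* and *Cylc2*, are its lysine-rich basic proteins. CAPZA3 is the male germ cell alpha subunit of the actin-capping protein, and ACTL7A, ACTL7B, ACTRT1, ACTRT2 and ACTRT3 are actin-related proteins of the testis, several of which are found at the theca or the acroplaxome. Loss of several of these proteins is known to deform the sperm head or impair male fertility.

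The genes are small and most lack introns. In GENCODE M21 on GRCm38 (the assembly also called mm10), *Ccin* (chr4:43983483-43985423, plus strand), *Capza3* (chr6:140041252-140042778, plus), *Actl7a* (chr4:56743413-56744925, plus), *Actl7b* (chr4:56740005-56741443, minus), *Actrt1* (chrX:46329007-46330345, plus) and *Actrt2* (chr4:154666433-154667867, minus) each had 1 exon in their longest transcript. *Actrt3* (chr3:30597073-30599939, minus) had 2 exons, *Cylc2* (chr4:51216678-51230272, plus) had 5 and *Cylc1* (chrX:111110418-111125854, plus) had 6. *Actl7a* and *Actl7b* lie head to head, with 1970 bp between their starts. *Capza3* overlaps *Plcz1* on the other strand and *Actl7b* overlaps the annotated gene *Gm26657* on the other strand, but reads were counted by strand. *Cylc1* and *Cylc2* had the lowest GC content of the 9, with 36.8% and 38.9% in their longest transcripts, against 43.8% to 58.6% in the other 7.

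Because these genes rose together in round spermatids, the stretches just upstream of their starts were read for the cyclic AMP response element (CRE), the palindrome bound by CREM, a transcription factor of post-meiotic male germ cells. RefSeq promoter windows (GRCm38.p6) were matched for 7 of the 9 genes, with none matched for *Cylc2* and *Capza3*. Of the 7, 1 (*Ccin*) held the palindrome TGACGTCA within 150 bases upstream of the RefSeq start. Another 3 (*Actl7a*, *Actl7b* and *Cylc1*) held TGATGTCA, which is not a palindrome, so that 4 held either. Each was searched on both strands (TGACATCA is the other strand of TGATGTCA). Among 32851 RefSeq promoters of the same length, 1.36% held TGACGTCA, 2.32% held TGATGTCA and 3.64% held either. The motif letters were chosen after these sequences had been seen, so the count beside these shares is a description and not a test of enrichment. A match does not show binding. The 4 windows are given 5′ to 3′ on the strand of the gene, with the match in capitals: *Ccin* (chr4:43983354-43983503), *Actl7a* (chr4:56743272-56743421), *Actl7b* (chr4:56741426-56741575, minus strand) and *Cylc1* (chrX:111110268-111110417).
Ccin: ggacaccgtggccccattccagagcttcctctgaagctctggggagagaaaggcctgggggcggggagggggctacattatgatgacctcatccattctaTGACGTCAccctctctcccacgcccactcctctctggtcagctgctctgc
Actl7a: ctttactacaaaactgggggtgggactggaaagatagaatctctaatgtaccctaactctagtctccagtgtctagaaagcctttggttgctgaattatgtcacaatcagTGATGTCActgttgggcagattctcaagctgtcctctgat
Actl7b: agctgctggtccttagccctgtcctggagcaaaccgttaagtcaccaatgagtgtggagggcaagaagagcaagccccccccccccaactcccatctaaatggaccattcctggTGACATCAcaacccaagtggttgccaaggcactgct
Cylc1: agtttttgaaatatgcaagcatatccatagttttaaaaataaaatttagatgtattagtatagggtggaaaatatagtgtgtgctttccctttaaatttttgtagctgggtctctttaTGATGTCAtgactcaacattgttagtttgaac
The matched letters began 50 bases upstream of the RefSeq start in *Ccin*, 40 in *Actl7a*, 36 in *Actl7b* and 32 in *Cylc1*. In *Ccin*, *Actl7a* and *Actl7b* the RefSeq start lies inside the GENCODE gene given above, so the window overlaps that gene. Neither set of letters was present in the windows of *Actrt1*, *Actrt2* and *Actrt3*.

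Counts on genes ranged from 2772995 to 8201682 per library, and a count of 0 would allow up to 3 reads, or 0.366 to 1.08 CPM depending on the library. CPM are the reads of a gene scaled to a common library total, here with library sizes adjusted by the trimmed mean of M-values (TMM) over all 21 libraries. *H2afb1* was read as the gene of H2A.L.2, because RefSeq lists this symbol as a synonym of *H2al2a*; it lists it for *H2ab1* too, but the files give *Gm14920*, another name of *H2ab1*, a row of its own with at most 6 reads per library. *H2afb1* had 99 to 339 reads in WT and 22 to 31 in KO pachytene spermatocytes, 1458 to 1495 and 144 to 182 at the round stage, 1100 to 1423 and 184 to 258 at the condensing stage, and 130 to 198 and 48 in spermatozoa, so that the genotypes did not overlap. Summed CPM of 6 pachytene markers was 2093 to 2375 in pachytene spermatocytes and at most 966 in every later library, and that of 6 round spermatid markers was 1129 to 1380 in round and 621 to 796 in condensing spermatids. The 6 condensing spermatid markers (*Tnp1*, *Tnp2*, *Prm1*, *Prm2*, *Odf1*, *Akap4*) already summed to 20110 to 26173 CPM in round spermatids and to 21056 to 33249 in condensing ones. Sertoli cell markers summed to 254.6 to 409.4 CPM in condensing spermatids and to at most 40.02 in the 2 earlier stages. Leydig cell markers summed to 74.65 to 196.8 CPM in condensing and at most 12.32 in round spermatids, but to 22.38 to 138.1 in pachytene spermatocytes. Red blood cell markers summed to 18.41 to 25.8 CPM in condensing spermatids, with *Hba-a1* and *Hbb-bt* at 0. In round spermatids, where only *Alas2* of these had reads, they summed to at most 1.947 CPM. Peritubular myoid markers summed to 54.25 to 95.25 CPM in pachytene spermatocytes, 314.6 to 413.5 in round and 293.3 to 412.1 in condensing spermatids. The part of other cells in the change from pachytene to round spermatids was not tested. WT round spermatid replicates 2 and 3 differed by about the sampling noise in genes of moderate counts (mean chi-square 1.06 per gene) but by more in the most abundant genes (8.76). They were kept as 2 libraries, and their sum as 1 library was tried as an alternative.

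All 9 genes were at their lowest before or after the spermatid stages. Together they took 0.0681% of the WT counts on genes at the pachytene stage, 0.277% at the round stage, 0.207% at the condensing stage and 0.0425% in spermatozoa, and 0.0583%, 0.273%, 0.221% and 0.0249% in *H2al2* KO. In bulk RNA of fractions, fewer cells of a type and less RNA per cell cannot be told apart.

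**Figure D1:**
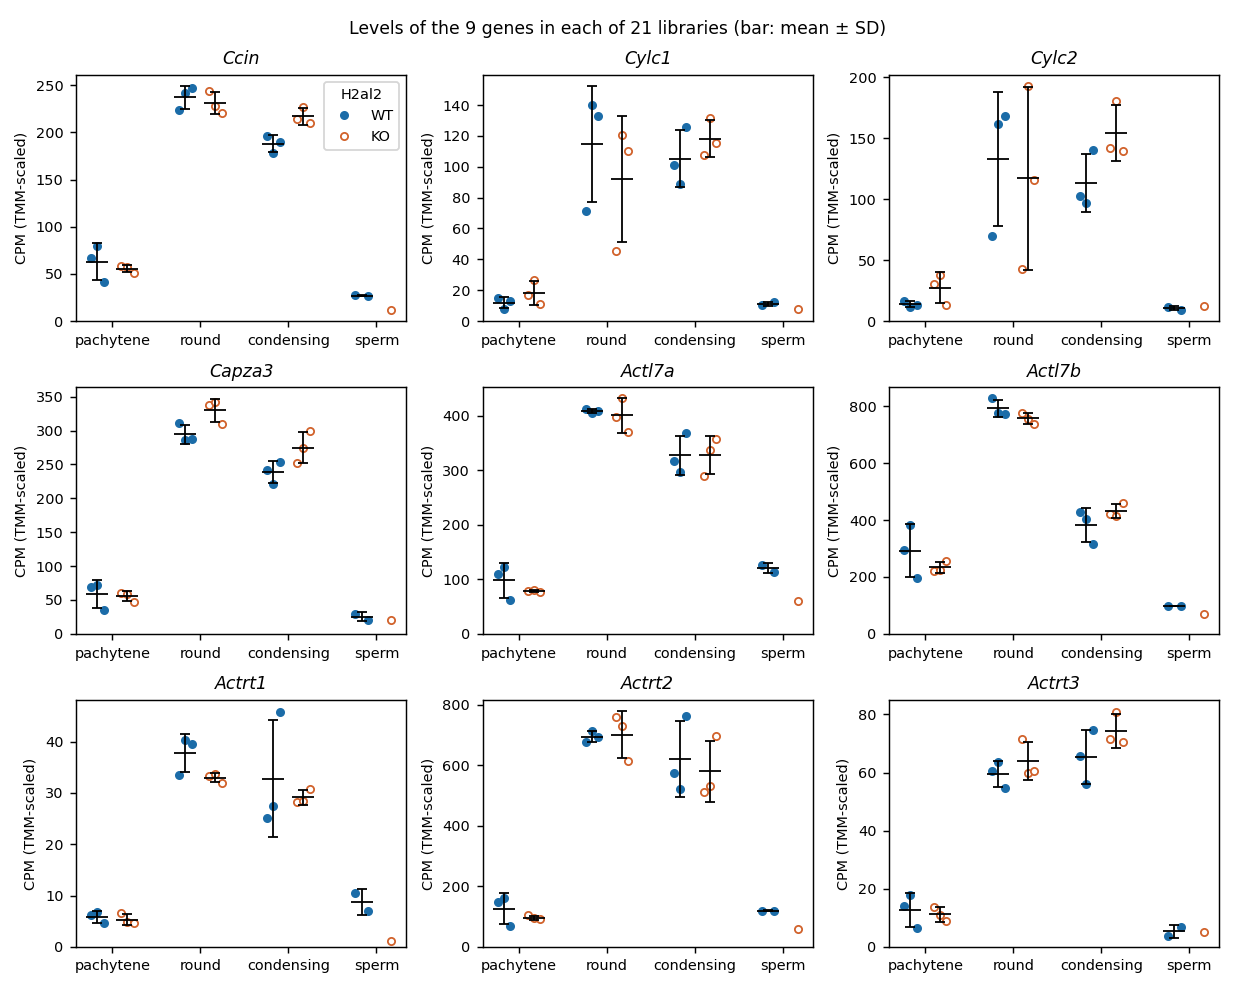
Level of each of the 9 genes in CPM on TMM-scaled library sizes (vertical axis, linear, starting at 0) in every library of 4 stages, with filled points for WT and open points for *H2al2* KO; bars are the mean and SD of a group. Group means of all 9 genes were higher in both spermatid stages than in pachytene spermatocytes and spermatozoa, and replicate 1 of each genotype is the low point of *Cylc1* and *Cylc2* in round spermatids.

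Calicin RNA was abundant in round spermatids of both genotypes. *Ccin* had 66.9, 79.8 and 41.5 CPM in the 3 WT pachytene libraries and 223.5, 241.7 and 246.7 CPM in the 3 WT round spermatid libraries. The condensing spermatid libraries had 196.0, 178.7 and 190.0 CPM, and the WT spermatozoa 27.1 and 26.4 CPM. Every spermatid library was thus above every pachytene and sperm library. In *H2al2* KO the range was 51.4 to 58.2 CPM in pachytene, 220.7 to 244.1 in round and 209.8 to 227.0 in condensing spermatids.

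The cylicins showed the same course from lower levels. *Cylc1* had 14.7, 8.01 and 12.9 CPM in WT pachytene spermatocytes and 71.2, 139.9 and 133.1 CPM in WT round spermatids. *Cylc2* had 16.6, 11.4 and 13.5 CPM in WT pachytene spermatocytes and 69.6, 161.5 and 168.0 CPM in WT round spermatids. Replicate 1 was the lowest library in both genes, and the SD of *Cylc2* over the 3 libraries was 55.1 for a mean of 133.0 CPM. In condensing spermatids the replicates lay closer, at 101.2, 89.1 and 125.8 CPM for *Cylc1* and 102.6, 96.7 and 140.6 CPM for *Cylc2*. WT spermatozoa had 10.2 and 12.1 CPM of *Cylc1* and 11.7 and 9.37 CPM of *Cylc2*.

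*Capza3*, the germ cell capping subunit, had 69.2, 71.7 and 34.8 CPM in WT pachytene spermatocytes and 310.8, 285.9 and 286.8 CPM in WT round spermatids. It had 242.0, 220.4 and 252.9 CPM in WT condensing spermatids and 30.0 and 21.2 CPM in WT spermatozoa. The round spermatid libraries were all above the condensing ones, and these above all others.

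*Actl7b*, whose product is expressed in spermatids and is known to be needed for male fertility, was the most abundant of the 9 per length in WT pachytene spermatocytes and round spermatids. It had 294.2, 382.9 and 196.9 CPM in WT pachytene spermatocytes, 828.1, 776.5 and 772.9 CPM in round spermatids and 429.8, 403.1 and 316.6 CPM in condensing spermatids. Its head-to-head neighbour *Actl7a*, which encodes an acroplaxome protein, had 110.3, 122.4 and 62.2 CPM in WT pachytene spermatocytes, 413.5, 405.1 and 408.3 CPM at the round stage and 318.0, 297.9 and 368.1 CPM at the condensing stage. The condensing and pachytene libraries thus overlapped for *Actl7b* and did not for *Actl7a*. WT spermatozoa had 97.4 and 98.5 CPM of *Actl7b* and 127.1 and 114.1 CPM of *Actl7a*.

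Among the 3 ACTRT genes, *Actrt2* was the highest. It had 148.4, 161.0 and 68.3 CPM in WT pachytene spermatocytes, 677.7, 712.9 and 695.3 CPM in round spermatids and 575.4, 523.3 and 762.4 CPM in condensing spermatids. *Actrt1*, on the X chromosome, had 6.14, 6.81 and 4.55 CPM, 33.4, 40.3 and 39.6 CPM, and 25.1, 27.5 and 45.9 CPM in the same 3 stages. *Actrt3*, whose product binds profilin 3, had 14.2, 17.7 and 6.31 CPM, 60.6, 63.6 and 54.8 CPM, and 65.8, 56.0 and 74.5 CPM. In all 3 genes the highest pachytene library was below the lowest spermatid library, and WT replicate 3 was the lowest pachytene library and the highest condensing one. WT spermatozoa had 119.8 and 117.6 CPM of *Actrt2*, 10.5 and 6.94 CPM of *Actrt1*, and 3.79 and 6.94 CPM of *Actrt3*.

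Per kb of exon, which allows the genes to be compared with each other, the order in WT round spermatids was *Actl7b* (550.7 ± 21.5 CPM per kb, mean ± SD, n = 3), *Actrt2* (484.5 ± 12.3), *Actl7a* (270.3 ± 2.81), *Capza3* (192.9 ± 9.24), *Ccin* (122.3 ± 6.31), *Cylc2* (68.9 ± 28.5), *Cylc1* (57.5 ± 19.0), *Actrt3* (30.4 ± 2.27) and *Actrt1* (28.2 ± 2.82). The cylicins did not differ from each other beyond their spread, and neither did *Actrt3* and *Actrt1*. *Actl7b* ranked 63rd and *Actrt2* 80th from the top among all genes with a known length, and *Actrt1*, the lowest, 2130th. In WT condensing spermatids *Actrt2* led with 432.3 ± 87.6 CPM per kb, ahead of *Actl7b* with 266.3 ± 41.1 and *Actl7a* with 216.8 ± 23.9, and the last pair was within the spread. WT spermatozoa had 82.7 CPM per kb of *Actrt2*, 79.7 of *Actl7a* and 68.1 of *Actl7b*, and at most 16.8 of each of the other 6.

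Between pachytene spermatocytes and round spermatids all 9 genes rose in WT and all 9 rose in *H2al2* KO, in fits that share no library. In WT, *Cylc1* (9.89-fold, log2 fold change 3.31 ± 0.28 SE) and *Cylc2* (9.83-fold, 3.30 ± 0.31) rose most, then *Actrt1* (2.71 ± 0.24), *Actrt2* (2.50 ± 0.26), *Capza3* (2.36 ± 0.21), *Actrt3* (2.24 ± 0.25), *Actl7a* (2.09 ± 0.20), *Ccin* (1.95 ± 0.19) and *Actl7b* (2.79-fold, 1.48 ± 0.20). Adjusted p ran from 3.79e-07 for *Cylc1* to 1.99e-05 for *Actl7b* in edgeR's quasi-likelihood test, adjusted by Benjamini-Hochberg over all genes tested and called at 0.05. In the same test 34.4% of all genes were called higher, and 25.0% were called higher by at least 2-fold, as all 9 were. The median change of the 9 was 2.36, against a median of -0.02 over all genes tested. In *H2al2* KO the changes ran from 1.68 ± 0.10 for *Actl7b* to 2.85 ± 0.13 for *Actrt2*, with a median of 2.34 and with 36.5% of all genes called higher. *Cylc1* and *Cylc2*, which led in WT, rose by 2.34 ± 0.29 and 2.09 ± 0.38 in KO.

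The WT pachytene libraries were not alike in these genes. WT pachytene replicate 3 was the lowest of the 3 in 7 of the 9 genes, all but the cylicins, and its condensing spermatid markers summed to 1812 CPM against 4602 and 4321 in replicates 1 and 2 and 2390 to 2628 in the KO pachytene libraries. The part of spermatid RNA in the pachytene levels was not tested. All 9 genes were still called higher in round spermatids with any 1 library left out.

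Between round and condensing spermatids 1 of the 9 genes was called in WT, where 21.8% of all genes were called lower and 28.3% higher. It was *Actl7b*, which fell 2.03-fold (log2 fold change -1.02 ± 0.20 SE, adjusted p 0.00102 in edgeR's quasi-likelihood test), and which was lower in all 3 condensing libraries than in all 3 round ones. A fall of at least 2-fold was called in 3.78% of all genes. The other 8 ran from -0.31 ± 0.18 (*Ccin*) to 0.16 ± 0.23 (*Actrt3*). In *H2al2* KO *Actl7b* fell by 0.80 ± 0.09 on the log2 scale (adjusted p 1.03e-06) and *Actl7a* by 0.28 ± 0.10 (adjusted p 0.0257), with 24.5% of all genes called lower. The *Actl7b* call held under every alternative and with any 1 library left out, whereas the number of the 9 called ran from 1 to 4 in WT and from 1 to 6 in KO. With a trend on GC content removed, an alternative chosen after the data had been seen, 4 were called in WT, namely *Ccin* (-0.57), *Capza3* (-0.49), *Actl7a* (-0.55) and *Actl7b*. The same 4 were called without WT pachytene replicate 3, 2 without WT round replicate 1 and 2 without WT condensing replicate 3. Of all genes, 5783 to 7919 were called in WT with 1 library left out (7919 without WT pachytene replicate 3), against 7009 in the main fit. The count over all genes with the GC trend removed is not given here. In KO 6 of the 9 were called with the GC trend removed, 4 without pachytene, round or condensing replicate 3 and 1 without condensing replicate 1 or 2, and *Actl7a* lost its call in 5 alternatives (edgeR adjusted p 0.0527 to 0.13). Of all genes, 6563 to 8029 were called in KO with 1 library left out, against 7521 in the main fit. The highest count was without pachytene replicate 3 and the lowest without condensing replicate 2. Among the calls of the 9 in KO the cylicins were the exceptions in direction. *Cylc1* (0.37, edgeR adjusted p 0.00417) and *Cylc2* (0.41, adjusted p 0.00109) were called higher in condensing spermatids with no filter on low counts, and *Cylc2* (0.97, adjusted p 0.0164) without KO round replicate 2. *Actrt3* had positive changes in both genotypes (0.16 in WT and 0.23 in KO) and was not called. Sertoli, Leydig and red blood cell markers were higher in the condensing than in the round fractions, as given above, and the part of such cells in these changes was not tested.

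**Figure D2:**
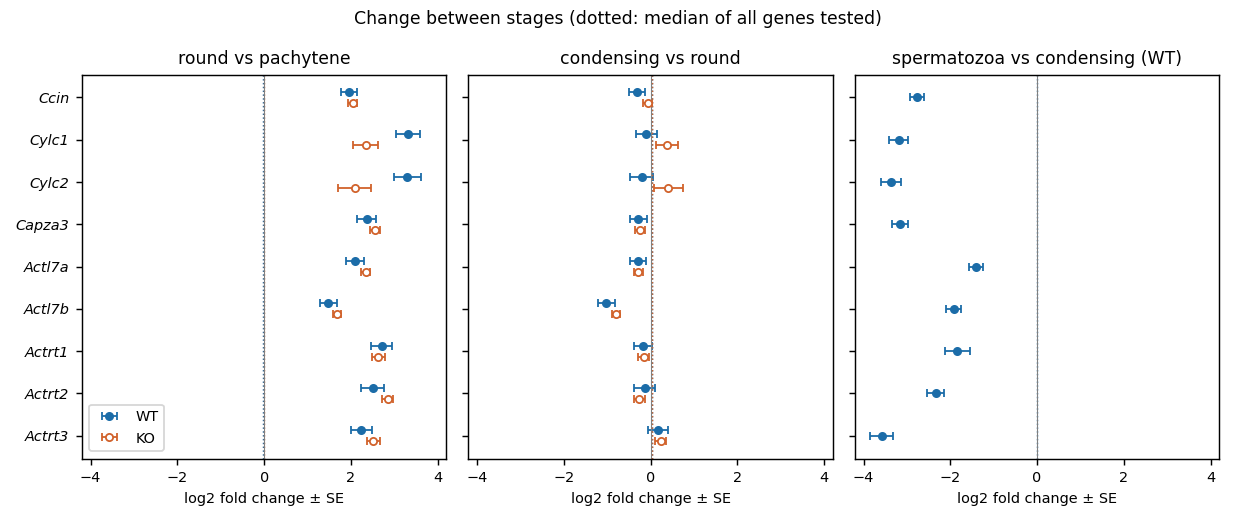
log2 fold change ± SE (horizontal axis) of each of the 9 genes between successive stages, with filled points for WT and open points for *H2al2* KO; dotted vertical lines are the median of all genes tested. All 9 genes lie right of 1 from pachytene spermatocytes to round spermatids, *Actl7b* lies lowest from round to condensing spermatids (-1.02 in WT, -0.80 in KO), and all 9 lie between -3.58 and -1.40 from condensing spermatids to WT spermatozoa.

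From condensing spermatids to spermatozoa, tested in WT only with 2 sperm libraries, all 9 genes were called lower, by at least 2-fold. *Actrt3* fell 11.99-fold (-3.58 ± 0.26), *Cylc2* 10.3-fold (-3.37 ± 0.23), *Cylc1* 9.15-fold (-3.19 ± 0.22), *Capza3* 8.95-fold (-3.16 ± 0.19) and *Ccin* 6.80-fold (-2.77 ± 0.17). The other actin-related genes fell less, by 2.34 ± 0.19 (*Actrt2*), 1.92 ± 0.17 (*Actl7b*), 1.84 ± 0.29 (*Actrt1*) and 1.40 ± 0.16 (*Actl7a*) on the log2 scale. The largest adjusted p was 9.15e-06 in edgeR's quasi-likelihood test, 35.8% of all genes were called lower, and 26.3% lower by at least 2-fold. The sperm libraries also held RNA of other cells: epididymal markers summed to 1812 to 1897 CPM in WT (with *Lcn5* and *Lcn8* at 0) and macrophage markers to 242.5 to 244.6 CPM, against at most 1.41 and 25.2 CPM in WT condensing spermatids. The part of these cells in the fall was not tested. In the 1 *H2al2* KO sperm library, which allows no test, macrophage markers summed to 1076 CPM and condensing spermatid markers to 9618 CPM (23066 to 25461 in WT sperm), and the levels were 11.9 CPM for *Ccin*, 7.92 for *Cylc1*, 12.5 for *Cylc2*, 19.8 for *Capza3*, 60.6 for *Actl7a*, 69.1 for *Actl7b*, 1.22 (4 reads) for *Actrt1*, 60.3 for *Actrt2* and 5.18 for *Actrt3*. Of the 9, 7 lay below both WT sperm libraries, as did 42.5% of all genes, *Cylc2* lay above both and *Actrt3* between them.

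The *H2al2* genotype was compared within each stage. None of the 9 genes was called in pachytene spermatocytes, round spermatids or condensing spermatids by edgeR's quasi-likelihood test, where 0%, 0.0156% and 0.00728% of all genes were called, nor by the DESeq2 Wald test. With 0% called in pachytene spermatocytes, *H2afb1* was not called there either, although it had 99 to 339 reads in WT and 22 to 31 in KO. The absence of calls at that stage thus does not show the absence of an effect. At an unadjusted p under 0.05 in the same test, 815 of 12236, 753 of 12804 and 870 of 13734 genes tested passed in these stages, and 1 of the 9 passed in each. They were *Cylc2* in pachytene spermatocytes (log2 fold change KO over WT 1.06 ± 0.35 SE, edgeR adjusted p 0.656), *Capza3* in round spermatids (0.17 ± 0.08, adjusted p 0.837) and *Cylc2* in condensing spermatids (0.43 ± 0.15, adjusted p 0.658). Without WT condensing replicate 3, *Cylc2* was called in condensing spermatids (0.63, edgeR adjusted p 0.0459), where 9 of all genes were called. Without WT pachytene replicate 3, *Actrt2* was called lower in KO pachytene spermatocytes (-0.56, edgeR adjusted p 0.0452), where 243 of all genes were called. The WT pachytene libraries left had condensing spermatid markers of 4602 and 4321 CPM, against 2390 to 2628 in KO. The part of spermatid RNA in that call was not tested. Other changes of the 9 ran from -0.30 (*Actrt2*) to 0.68 (*Cylc1*) at the pachytene stage, from -0.30 (*Cylc1*) to 0.11 (*Actrt3*) at the round stage and from -0.17 (*Actrt1*) to 0.20 (*Ccin*) at the condensing stage.

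In round spermatids, the stage of highest levels, the SE of the KO effect was 0.07 to 0.11 for the 7 genes other than the cylicins, and their effects were -0.19 to 0.17. It was 0.32 for *Cylc1* and 0.43 for *Cylc2*, so that a difference of the same size would be less easily seen in the cylicins. Libraries of the genotypes did not overlap for 1 of the 9 genes in 1 stage, *Ccin* in condensing spermatids, with 196.0, 178.7 and 190.0 CPM in WT and 214.6, 227.0 and 209.8 CPM in KO. In that comparison 12.1% of all genes did not overlap, and in pachytene and round spermatids, where none of the 9 did so, 11.4% and 9.86%. Sertoli cell markers were lower in every KO than in every WT library of each stage (10.47 to 19.41 CPM against 26.95 to 32.41 in pachytene, 18.57 to 24.35 against 25.95 to 40.02 in round and 254.6 to 306.7 against 318.2 to 409.4 in condensing spermatids). Leydig cell markers were lower in KO in round (5.904 to 8.627 against 9.804 to 12.32) and condensing spermatids (74.65 to 113.2 against 129.1 to 196.8) and overlapped in pachytene spermatocytes, and the part of these cells in the genotype comparisons was not tested.

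**Figure D3:**
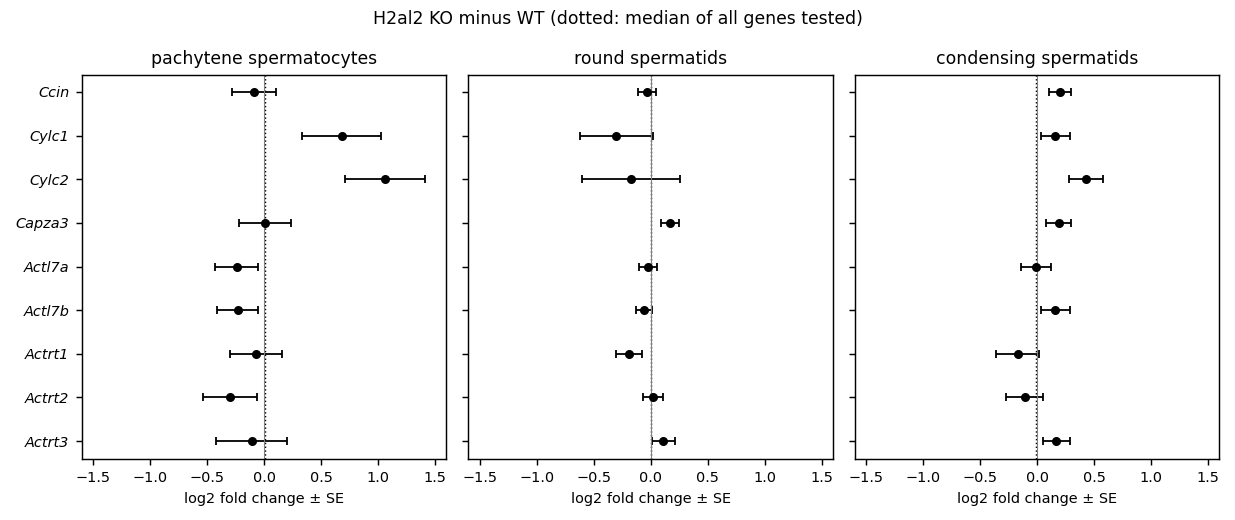
log2 fold change of *H2al2* KO over WT ± SE (horizontal axis) for each of the 9 genes in 3 stages; dotted lines are the median of all genes tested. None of the 9 was called, and in pachytene and round spermatids the widest error bars belong to *Cylc1* and *Cylc2*.

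Whether the KO effect differed between stages was tested as an interaction on the 18 libraries of 3 stages. None of the 9 was called in either interaction by edgeR's quasi-likelihood test or by the DESeq2 Wald test, and 0% of all genes were called by edgeR. At an unadjusted p under 0.05 in edgeR's test, 1050 and 407 of 14479 genes tested passed, and none of the 9. From pachytene to round spermatids the difference was -0.97 ± 0.48 for *Cylc1* and -1.22 ± 0.59 for *Cylc2* (adjusted p 0.676 for both in edgeR's test), and it reached 0.34 ± 0.29 in the other direction (*Actrt2*). From round to condensing spermatids it ran from -0.13 ± 0.28 (*Actrt2*) to 0.61 ± 0.54 (*Cylc2*).

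In round spermatids and KO pachytene spermatocytes the cylicins stood apart from the other 7 in how they varied between replicates. They did not in every group. WT pachytene spermatocytes had 13.8 ± 2.64 CPM of *Cylc2* (mean ± SD) and 12.7 ± 5.83 of *Actrt3*. WT condensing spermatids had 113.3 ± 23.8 CPM of *Cylc2* and 32.8 ± 11.4 of *Actrt1*. In *H2al2* KO round spermatids *Cylc1* had 45.6, 120.9 and 110.4 CPM and *Cylc2* had 42.7, 193.1 and 115.6 CPM, so that replicate 1 was the low library in KO as it was in WT. On the scale of log2(CPM + 1), replicate 1 differed from the mean of replicates 2 and 3 by -0.93 in WT and -1.32 in KO for *Cylc1*, and by -1.23 and -1.78 for *Cylc2*, whereas the other 7 genes differed by -0.25 to 0.24. In KO pachytene spermatocytes *Cylc1* had 17.1, 26.3 and 10.9 CPM and *Cylc2* had 30.6, 38.1 and 13.3 CPM. There replicates 1 and 2 exceeded replicate 3 by 0.90 and 1.29, against -0.20 to 0.45 in the other 7 genes.

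The same libraries differed across all genes by GC content. The 634 genes under 40% GC had median differences of -0.17 in WT and -0.20 in KO round spermatids and 0.27 in KO pachytene spermatocytes, and the 2064 genes at 55% GC or more had 0.08, 0.11 and -0.12. The cylicins, both under 40% GC, thus differed in the direction of their GC class and by more than its median. With the GC trend removed, the KO effect of *Cylc2* in pachytene spermatocytes was 0.67 ± 0.26 in place of 1.06 ± 0.35, that of *Cylc1* 0.22 ± 0.23 in place of 0.68 ± 0.35, and the interactions from pachytene to round spermatids were -0.81 ± 0.50 (*Cylc2*) and -0.50 ± 0.36 (*Cylc1*). The part of base composition or of the purity of fractions in the difference between replicates was not tested further.

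**Figure D4:**
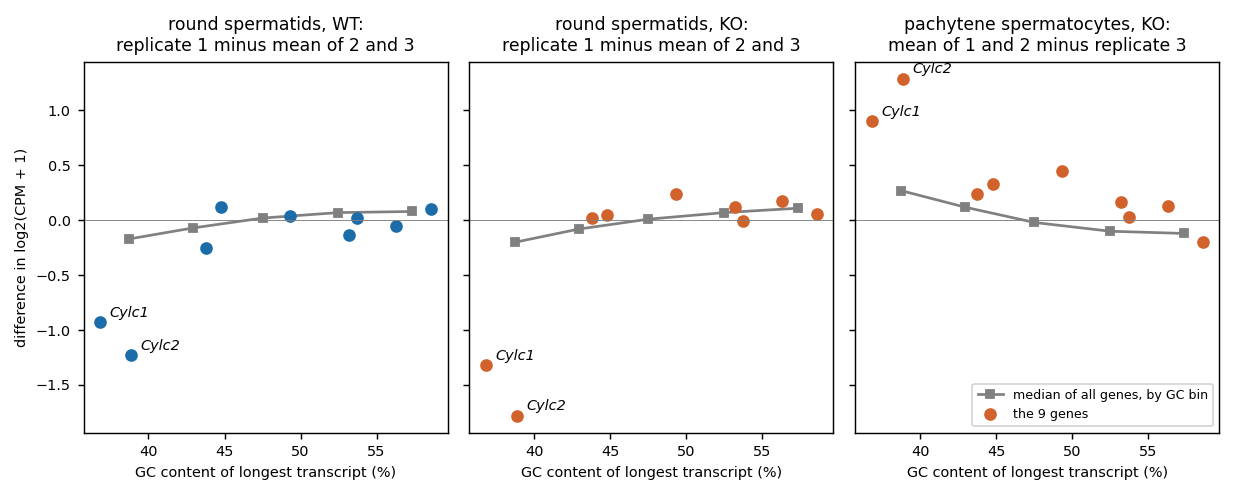
Difference between replicates in log2(CPM + 1) (vertical axis) against GC content of the longest transcript in percent (horizontal axis) for the 9 genes (circles) and for the median of all genes in 5 GC bins (grey squares), in WT and KO round spermatids (replicate 1 minus the mean of 2 and 3) and KO pachytene spermatocytes (mean of 1 and 2 minus 3). *Cylc1* and *Cylc2* lie farthest from 0 in all 3 panels, on the same side as the bin of lowest GC content.

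Ratios within a library do not depend on the scaling. The ratio of *Actl7a* to *Actl7b* reads rose along the stages in both genotypes, with geometric means in WT of 0.336 in the pachytene libraries, 0.516 in the round, 0.860 in the condensing and 1.23 in the sperm libraries, and 0.336, 0.529, 0.760 and 0.877 in KO. In the first 3 stages the libraries of successive stages did not overlap in either genotype (0.316 to 0.375, 0.499 to 0.528 and 0.739 to 1.16 in WT). The neighbouring pair thus had no fixed proportion of reads over the stages.

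*Cylc1* and *Cylc2* kept a ratio of 0.558 to 1.30 in all 21 libraries. In condensing spermatids the ratio was 0.895 to 0.987 in WT and 0.729 to 0.827 in KO, which do not overlap; in the other stages the genotypes overlapped or KO had 1 library. This difference in the ratio was not tested. Of single genes, 12.1% did not overlap between genotypes in condensing spermatids, and no share over other ratios was computed.

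*Capza3* was set against *Capza1* and *Capza2*, which encode the alpha subunits of capping protein found in most cells. In WT its reads came to 0.130 of their sum in the pachytene libraries, 1.11 in the round, 0.929 in the condensing and 0.138 in the sperm libraries (geometric means), and to 0.120, 1.30, 0.962 and 0.0652 in KO. These ratios are of reads and are not scaled by length. Per kb of exon, WT round spermatids had 192.9 CPM of *Capza3*, 65.0 of *Capza1* and 3.25 of *Capza2*, and WT pachytene spermatocytes 38.3, 106.5 and 4.82. The KO sperm library, high in macrophage markers, had 164.5 CPM of *Capza2*, against 53.05 to 59.31 in WT. The part of other cells in its ratio was not tested. From pachytene to round spermatids in WT, *Capza1* fell by 0.68 ± 0.13 and *Capza2* by 0.53 ± 0.12 on the log2 scale while *Capzb*, which encodes the beta subunit that pairs with each of them, rose 1.96-fold (0.97 ± 0.14), all called by edgeR's quasi-likelihood test. *Capza2* rose again from round to condensing spermatids (0.73 ± 0.13, adjusted p 0.000476 in the same test).

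**Figure D5:**
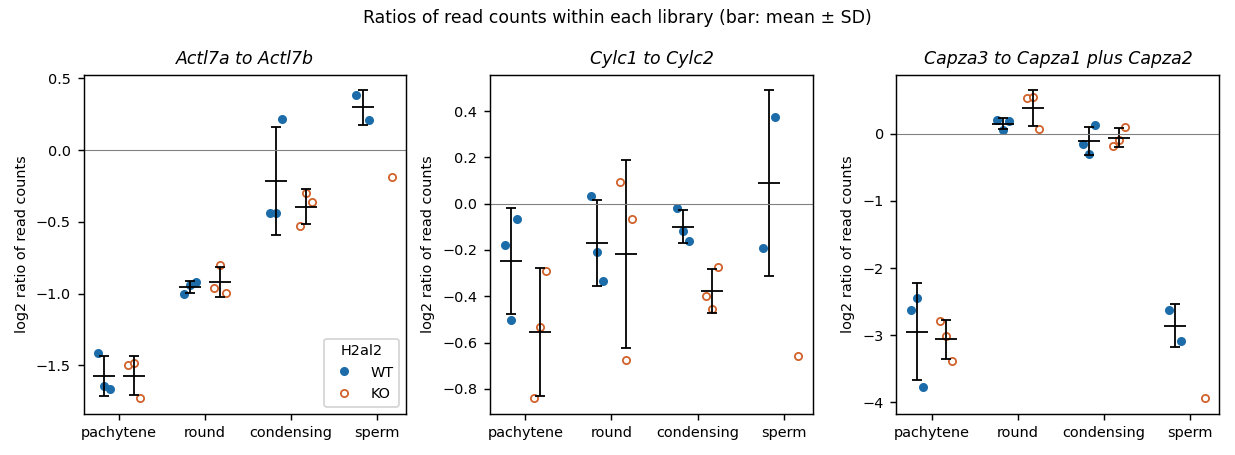
log2 ratio of read counts within each library (vertical axis) for *Actl7a* to *Actl7b*, *Cylc1* to *Cylc2* and *Capza3* to *Capza1* plus *Capza2*, by stage, with filled points for WT, open points for *H2al2* KO and bars for mean and SD. On the log2 scale the first ratio rises from stage to stage in WT and the second stays between -0.841 and 0.374. Group means of the third lie between -0.11 and 0.38 in spermatids and at -2.95 in WT pachytene spermatocytes.

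A total of 4 lists of related genes give the setting, each by its counts in the same tests. Of 12 other proteins of the theca, acroplaxome or subacrosomal layer, 11 were called higher and none lower from pachytene to round spermatids in each genotype (median 2.20 in WT and 1.96 in KO). Of all genes, 34.4% were called higher in WT and 36.5% in KO. The largest changes in WT were those of *Plcz1* (2.86), which encodes the egg-activating phospholipase, *Stat4* (2.69), *1700024P04Rik* (2.68), listed for the histone variant H2B.L.1, *Spem1* (2.63), *Spaca1* (2.26) and *Wbp2nl* (2.24), whose product lies in the post-acrosomal theca. *Dpy19l2*, which anchors the acrosome to the nuclear envelope, was the 1 not called in WT (0.28, adjusted p 0.0782). From round to condensing spermatids 5 of the 12 were called lower in WT and 6 in KO, led in WT by *Spaca1* (-1.08), beside 21.8% and 24.5% of all genes. All 12 were called lower in WT spermatozoa, as were 35.8% of all genes. None was called between genotypes in any stage, but without WT pachytene replicate 3 *Spem1* was called lower in KO pachytene spermatocytes (-0.62 ± 0.11, edgeR adjusted p 0.0411), as *Actrt2* was. In that fit 243 of all genes were called.

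Of 17 actin and other actin-related genes, 14 were tested, with 6 called higher and 5 lower from pachytene to round spermatids in each genotype; of all genes 34.4% and 36.5% were called higher and 35.9% and 38.4% lower in WT and KO, so that the list lay near the background. Testis genes among them rose in WT, with 2.52 ± 0.25 for *Actl11*, 1.92 for *Actl10* and 1.72 ± 0.19 for *Actl9*, and so did *Actb*, cytoplasmic beta-actin (1.13 ± 0.15). *Actl10* was then called lower in condensing spermatids (-1.12, adjusted p 0.000407), as *Actl7b* was, whereas *Actl9* and *Actl11* had 0.10 and 0.09 and were not called. Of 6 profilin and dynein light chain genes, 3 were called higher and 1 lower in WT, and 3 higher and 2 lower in KO, beside the same shares of all genes. In WT the dynein light chain genes *Dynll2* (2.21 ± 0.23) and *Dynll1* (1.16) rose, as did *Pfn3*, the profilin that binds ACTRT3 (1.86), and *Pfn1*, the profilin of most cells, fell by 2.14 ± 0.14 on the log2 scale. *Pfn2* was called lower in KO only (-0.39, against -0.21 in WT; the difference was not called), and *Pfn4*, also a testis profilin, had 0.03 in WT and was not called. Of 5 capping protein genes, *Capza1b* was not analysed here, *Capg* passed the filter on low counts only in the fit with spermatozoa, and the other 3 are given above. None of these genes was called between genotypes in any stage.

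Over the 18 libraries of 3 stages, levels on the scale of log2(CPM + 1) moved closely together, as a description in which the stages supply most of the spread. Pearson's r was 0.99 between *Cylc1* and *Cylc2* and at least 0.97 among *Ccin*, *Capza3*, *Actl7a*, *Actrt1*, *Actrt2* and *Actrt3*. It was 0.61 to 0.86 between *Actl7b* and the other 8. By ranks the picture differed: Spearman's rho was 0.96 between the cylicins and 0.81 to 0.94 among *Ccin*, *Capza3*, *Actl7a*, *Actrt1* and *Actrt2*, but 0.59 to 0.74 between *Actrt3* and these 5, while *Actl7b* had 0.91 with *Ccin*, *Capza3* and *Actl7a* and 0.57 to 0.78 with the others. Of 10195 genes with a mean of at least 5 CPM, the one most like each of the 9 by Pearson's r, outside the list, was *Scp2d1* for *Ccin* (r 0.998), *4921539E11Rik* for *Cylc1* (0.993), *Gm382* for *Cylc2* (0.983), *Dgkh* for *Capza3* (0.997), *Stard10* for *Actl7a* (0.998), *1700011A15Rik* for *Actl7b* (0.993), *Galntl5* for *Actrt1* (0.995), *2610318N02Rik* for *Actrt2* (0.999) and *Spata31d1b* for *Actrt3* (0.996). *Cpxcr1* was among the 3 most like genes of both cylicins (0.987 and 0.973), and *Ccdc169* among those of *Ccin* and *Capza3* (0.996 each). These names hold for Pearson's r: by Spearman's rho another gene came first for each of the 9, and 2 of the 27 genes in the first 3 places were shared between the measures.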

How the data were processed

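RNA of 21 libraries was analysed. The authors depleted ribosomal RNA, aligned untrimmed reads to mm10 with STAR (2.7.11b in the submitters' processing notes), counted reads on the transcribed strand over exons with HTSeq and deposited raw counts per gene, 1 file per library, without normalization. Reads aligned to several places were not counted. The 5 rows naming no gene (34.6% to 57.7% of counted reads) were left out. Counts on genes ranged from 2772995 to 8201682 per library, and limits given for a count of 0 cover counting error only.

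Groups came from the sample labels. The 9 genes, the gene lists and the tests were chosen with earlier results of these data known. Tests used edgeR 4.0.16 (R 4.3.3), TMM, filterByExpr, quasi-likelihood F tests and Benjamini-Hochberg adjustment over all genes tested, called at 0.05. KO was compared with WT in 3 fits, 1 per stage, stages within each genotype (9 libraries each), the interactions on 18 libraries, and WT spermatozoa with WT condensing spermatids on 5. All 9 genes passed the filter in every fit. The fits were also run on simulated counts with planted changes and the same spread for every gene. That run checked the code and does not show how the tests behave at the spread of these libraries. Alternatives were DESeq2 1.42.0 (Wald test), other scalings and filters, a replicate block, other sets of libraries, each replicate left out and, added after the data had been seen, a GC trend removed.

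Gene symbols matched GENCODE M21 for 23378 of 24456 genes (95.6%). The genes named are the 9, the listed and marker genes, *H2afb1*, overlapping neighbours and, for each of the 9, up to 3 genes of highest Pearson correlation.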

Additional observations from a re-analysis of the deposited data

How the results depend on the processing

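The 9 genes were called higher from pachytene spermatocytes to round spermatids in both genotypes, and lower in WT spermatozoa, under every alternative run. Between genotypes 0 of the 9 were called in round spermatids under all 15 alternatives, and 0 in both interactions under all 27. Leaving out 1 library gave 0 to 1 called in pachytene spermatocytes (1 without WT replicate 3) and 0 to 1 in condensing spermatids (1 without WT replicate 3). Of the 12 other theca and acroplaxome genes, 1 (*Spem1*) was called in pachytene spermatocytes without WT replicate 3.

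From round to condensing spermatids in WT, 1 of the 9 was called, 4 with the GC trend removed and 1 to 4 with 1 library left out. In KO 2 were called, 5 with no filter on low counts (*Cylc1* and *Cylc2* higher, *Actrt2*, *Actl7a* and *Actl7b* lower), 1 with at least 10 counts in every library, 6 with the GC trend removed, 1 in the fit on all 18 libraries and 1 to 4 with 1 library left out (4 without pachytene replicate 3, round replicate 3 or condensing replicate 3, and 1 without condensing replicate 1 or 2). With 1 library left out, 5783 to 7919 of all genes were called in WT and 6563 to 8029 in KO. Changes of the 9 that turned direction were all of uncalled genes. For KO against WT in pachytene spermatocytes, *Capza3* had 0.01, and -0.02 by library size only, -0.01 with no filter and -0.13 with the GC trend removed; with 1 library left out it ran from -0.22 to 0.15, *Ccin* from -0.28 to 0.06, *Actrt1* from -0.27 to 0.04 and *Actrt3* from -0.40 to 0.13. In round spermatids these ranges were -0.07 to 0.01 for *Ccin*, -0.55 to 0.03 for *Cylc1*, -0.74 to 0.24 for *Cylc2* (0.0042 with WT replicates 2 and 3 summed), -0.08 to 0.04 for *Actl7a* and -0.03 to 0.11 for *Actrt2*. In condensing spermatids they were -0.08 to 0.09 for *Actl7a* (0.04 with the GC trend removed), -0.34 to 0.15 for *Actrt1* and -0.26 to 0.08 for *Actrt2*. From round to condensing spermatids *Cylc1* in WT ran from -0.36 to 0.06 (0.02 with WT round replicates 2 and 3 summed) and in KO was -0.01 with the GC trend removed, *Actrt3* was -0.11 in WT and -0.03 in KO with the GC trend removed, and *Cylc2* in KO ran from -0.0029 to 0.97. The second interaction of *Actrt2* was -0.27 to 0.07. The cause of these shifts was not tested.

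Same-numbered replicates of the genotypes had correlations of deviations of -0.252 to -0.116 in pachytene, 0.0825 to 0.32 in round and -0.0531 to 0.144 in condensing spermatids, so the numbers were not read as pairs. With the replicate block the counts of the 9 called stayed at 0 in each stage, 9 and 1 in WT, 9 and 2 in KO, 0 in both interactions and 9 for WT spermatozoa. The block called 61 of all genes in round (2 without it) and 26 in condensing spermatids (1 without it). Over the other alternatives, all genes called between genotypes ran from 0 to 243 in pachytene, 1 to 264 in round and 1 to 27 in condensing spermatids (243 without WT pachytene replicate 3, 264 without WT round replicate 1, 27 with no filter), and up to 4 in the interactions.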
